A study of Xenopus tropicalis with 12 samples.

Results

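In animal caps, the explanted ectoderm of frog blastulae, 55 genes of the western clawed frog Xenopus tropicalis lay below 1 CPM in both kinds of control explants and were expressed once human Phf8 mRNA had been injected together with morpholinos against the Suv4-20H enzymes. CPM, the level by which they were selected from 34177 gene IDs, gives the sense counts of a gene per 1000000 sense counts assigned to gene IDs in the same library. A member had to lie below 1 CPM in each of the 6 control libraries and at 5 CPM or more in each of the 3 libraries of the rescue condition. Of all gene IDs, 19502 met the first condition and 9678 the second. The levels in control and rescue libraries therefore chose the genes and are given here as a description, without a test.

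The explants had been cut from injected embryos, cultured to stage NF16, and sequenced as ribosomal RNA-depleted total RNA in 4 groups of 3 biological replicates. Control explants were of 2 kinds, CoMo with a control morpholino but without mRNA, and LacZ with LacZ mRNA but without morpholino. In the hPhf8 explants, human Phf8 mRNA supplied PHF8. This enzyme demethylates several histone sites, among them lysine 20 on histone H4 in its monomethylated state. In the hRescue explants the same mRNA was combined with morpholinos that block translation of Suv4-20H1 and Suv4-20H2, the enzymes that turn the monomethylated state into the di- and trimethylated states. No group with the morpholinos alone was analysed here, and hRescue differed from CoMo and LacZ in both reagents. Only hRescue against hPhf8 has the same mRNA on both sides and differs by the morpholinos. The hPhf8 explants had no control morpholino, so loss of the enzymes and morpholino injection as such cannot be told apart there. According to the study's methods each RNA came from a pool of explants, so the libraries give averages over many embryos. In such bulk samples, more cells that transcribe a gene and more RNA per cell cannot be told apart.

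Animal cap cells are pluripotent at the time of explantation and become mucociliary epidermis when left without inducing signals. Genes for mesoderm, endoderm and differentiated tissues are normally switched off on this path. The methylation states of lysine 20 on histone H4 differ in their known roles, and the trimethylated state is enriched in constitutive heterochromatin.

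Gene counts per library amounted to 14361942 to 35584520 in the 6 controls and to 5258667 to 7444628 in hRescue. A count of 1 corresponded to 0.0281 to 0.0696 CPM in the controls and to 0.134 to 0.190 CPM in hRescue. The hPhf8 group was uneven, since replicates 1 and 3 held 14484963 and 10424713 counts while replicate 2 held 2204210, with 36% of its read pairs mapping to several places and 23.5% of its gene counts on the antisense strand. In this library 3 counts, taken as the floor of detection, equalled 1.36 CPM, which is above the control limit. The level in hPhf8 is therefore described from replicates 1 and 3, with replicate 2 beside them. The floors cover counting error only. Values after ± are SDs of levels or shares over 3 libraries, or standard errors of fitted log2 fold changes, and both include differences between replicates.

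The 55 members fell into a small group of known genes and a large group of provisional gene models. Names came from the study's annotation, available here for 6622 IDs ranked by the strength of their change in the study's own comparisons. Of the members, 15 carried a gene symbol, 34 a provisional LOC entry and 3 an entry of the Xetrov series, and 3 had no name. Close to each limit of the rule the selection was a matter of a few counts. The last members inside the hRescue minimum were psd and LOC100488903, with lowest hRescue libraries at 5.08 and 5.13 CPM, whereas gene16116 and gene26727 fell outside, both at 4.94 CPM. At the control limit, pcdh8 at 0.984 CPM and Xetrov90018388m.g at 0.959 CPM were inside, and LOC105948173 and LOC105946582, both at 1.0 CPM, were outside.

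Summed over the 55 members, the CoMo libraries held 16.2, 23.6 and 18.7 CPM and the LacZ libraries 19.9, 20.7 and 15.2 CPM. The sum was 22.8 CPM in hPhf8 replicate 1, 33.6 CPM in replicate 2 and 23.7 CPM in replicate 3. In hRescue it was 1157, 994 and 565 CPM, so the highest of the other 9 libraries lay far below the lowest hRescue library. The median member stood at 0.363 CPM as a mean over the 6 controls and at 13.9 CPM as a mean over hRescue. Silence in the controls was not complete, since every member had at least 1 count in a control library and 46 had counts in all 6.

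**Figure D1:**
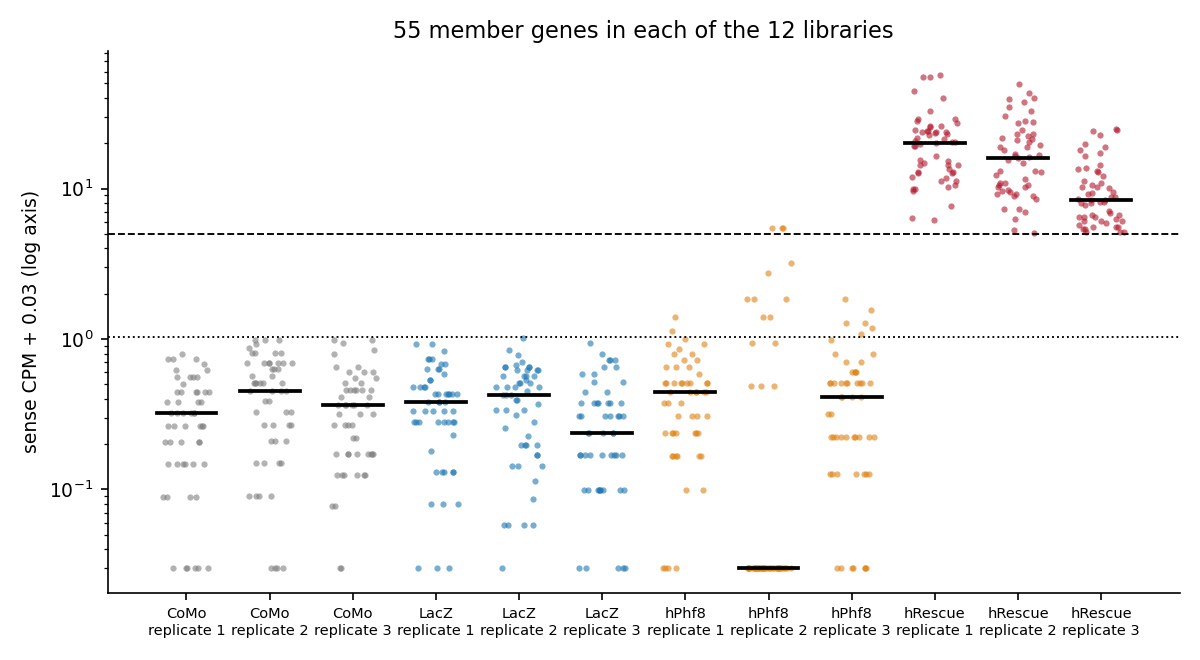
Sense CPM plus 0.03 on a log axis for each of the 55 members (points) in the 12 libraries, with the median as a bar, the control limit of 1 CPM dotted and the hRescue minimum of 5 CPM dashed. The medians of hPhf8 replicates 1 and 3 (0.414 and 0.384 CPM) sit beside those of CoMo and LacZ (0.209 to 0.419 CPM), and hRescue replicate 3 (8.37 CPM) sits below hRescue replicates 1 and 2 (20.0 and 16.0 CPM).

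The symbol-bearing members are described by what they are known to do, beginning with transcription factors. The highest of them was mafa, a large Maf transcription factor of the basic leucine zipper family that acts in lens and in insulin-producing cells. It reached 56.6, 43.4 and 24.5 CPM in hRescue, a mean of 41.5 ± 16.1 CPM (SD, n = 3) and the highest mean of any member. In the controls mafa ranged from 0.209 to 0.534 CPM with a median of 0.329 CPM. It measured 0.483 and 0.480 CPM in hPhf8 replicates 1 and 3 and 1.81 CPM in replicate 2. The hPhf8 replicates 1 and 3 lay within the control range, and the hRescue libraries overlapped with no other library.

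The members eomes, mixer and pcdh8 belong to the gene set that patterns mesoderm and endoderm in the gastrula, although only eomes and mixer stood in the marker list used here. The T-box factor eomes, which drives early mesoderm and endoderm formation, measured 29.0, 18.8 and 8.37 CPM in hRescue. It stayed between 0.0696 and 0.659 CPM in the controls and measured 0.276, 0 and 0.480 CPM in the hPhf8 replicates. The homeobox factor mixer, an endoderm regulator of the Mix family, measured 24.3, 16.0 and 6.66 CPM in hRescue. Its controls lay between 0.0696 and 0.530 CPM, and its hPhf8 values were 0.138, 0.907 and 0.192 CPM. In both genes the order of the hRescue libraries was the same, with replicate 1 highest and replicate 3 lowest, and hPhf8 replicates 1 and 3 did not leave the control range.

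The protocadherin gene pcdh8, whose Xenopus product paraxial protocadherin mediates cell movements of gastrulating mesoderm, varied most of these genes. In hRescue it measured 55.1, 21.6 and 7.99 CPM (mean 28.2 ± 24.2, SD, n = 3), a spread nearly as large as the mean. Controls ran from 0.139 to 0.984 CPM, and hPhf8 replicates 1 to 3 held 0.483, 5.44 and 1.82 CPM. Thus pcdh8 was above all controls in hPhf8 replicates 2 and 3, and replicate 1 was inside the control range.

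Genes of signalling and of cell membranes made up a further group. The gene apc2, a relative of the Wnt pathway component APC, measured 55.2, 20.9 and 18.1 CPM in hRescue against 0.120 to 0.802 CPM in the controls. The values in hPhf8 replicates 1 and 3 were 0.621 and 0.767 CPM, inside the control range, while replicate 2 held 3.18 CPM. The serotonin receptor gene htr5a measured 15.4, 15.4 and 6.47 CPM in hRescue, 0.334 to 0.599 CPM in controls, and 0.414, 0 and 0.384 CPM in hPhf8. The gene psd, which encodes an exchange factor for the small GTPase ARF6, was the lowest member by mean level. It stood at 7.66, 5.08 and 5.51 CPM in hRescue and at 0.279 to 0.659 CPM in controls.

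The lipid and transport genes were among the steadiest or the most silent of the named members. For pla2g12b, a member of the secreted phospholipase A2 family, the hRescue libraries lay close together at 20.4, 19.4 and 18.8 CPM (19.5 ± 0.809, SD, n = 3), with controls from 0.139 to 0.779 CPM. The solute carrier gene slc46a2 measured 23.9, 11.5 and 11.2 CPM in hRescue and 0.138, 0 and 0.0959 CPM in the hPhf8 replicates. It had no count in 4 of the 6 control libraries, and its highest control value was 0.180 CPM. For dysf, which encodes the membrane repair protein dysferlin, the hRescue values were 23.6, 16.4 and 12.2 CPM. Its controls reached 0.143 CPM at most, 3 of them had no count, and only hPhf8 replicate 3 had a count in that group, at 0.0959 CPM.

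Muscle, sensory and nuclear genes completed the named members. The leiomodin gene lmod3, whose product nucleates actin filaments in muscle, measured 6.31, 8.84 and 6.09 CPM in hRescue against 0.0501 to 0.539 CPM in the controls. For dfnb59, which encodes the hearing protein pejvakin, hRescue stood at 19.1, 12.2 and 6.09 CPM and the controls at 0.348 to 0.702 CPM. The chromatin co-activator gene ss18l1 measured 10.5, 6.21 and 5.51 CPM in hRescue and 0.236 to 0.620 CPM in controls. The coiled-coil gene ccdc177 measured 14.4, 19.0 and 8.18 CPM in hRescue, and no control exceeded 0.419 CPM. The core histone gene hist1h2ah, which encodes a histone H2A, measured 16.4, 16.2 and 5.51 CPM in hRescue against 0.0599 to 0.534 CPM in controls. In hPhf8 replicates 1 and 3 it stood at 0.138 and 0.0959 CPM, and 1.81 CPM was found in replicate 2. Across these genes no control library reached the lowest hRescue library, which the selection required.

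**Figure D2:**
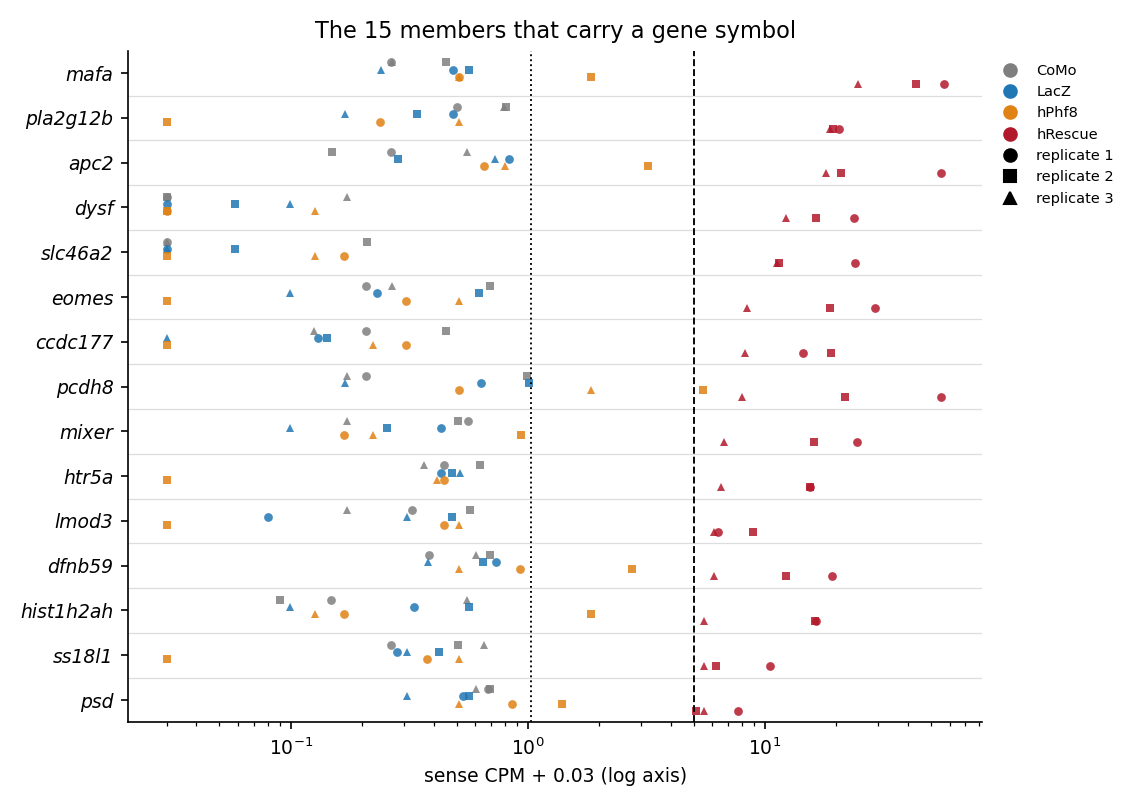
Sense CPM plus 0.03 on a log axis for the 15 members that carry a gene symbol, ordered by their lowest hRescue library; colours mark the 4 groups and symbols the 3 replicates, and the dotted and dashed lines mark 1 and 5 CPM. hRescue values run from 5.08 CPM (psd) to 56.6 CPM (mafa), and the hPhf8 points above 1 CPM are replicate 2 except for replicate 3 of pcdh8 (1.82 CPM).

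The provisional models reached similar levels. LOC105947140 had the highest minimum of all members, with 44.3, 39.5 and 24.7 CPM in hRescue, 0.0589 to 0.602 CPM in the controls, and 0.345, 1.81 and 0.384 CPM in hPhf8. LOC101732670 followed with 28.2, 49.8 and 24 CPM in hRescue and differed in that replicate 2 was its highest library. The gene whose profile over the 12 libraries was most like that of LOC105947140 was mafa, with a Pearson r of 0.997 on log2(CPM + 1). LOC100485239 (0.995), LOC100486870 (0.992), LOC100498391 (0.987) and gene16832 (0.984) came next. Since the selection forces the same contrast on every member, all 54 other members had an r of 0.923 or more, and the points share depth and library.

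The hRescue replicates were not alike in these genes. Replicate 3 was the lowest hRescue library for 50 of the 55 members, and replicate 1 was the highest for 38 and replicate 2 for 17. Among all 9678 genes at 5 CPM or more in every hRescue library, replicate 3 was lowest for 38%. The median member stood in replicate 3 at 0.501 times its level in replicate 1, compared with 0.930 for those genes. The median ratio of the highest to the lowest hRescue library was 2.17 for the members, with a range from 1.08 to 6.90, against 1.39 for all genes with a mean of at least 5 CPM in hRescue. Replicate 3 was thus the library that decided the hRescue minimum for most members, and 98 genes met the rule without it.

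The hPhf8 explants offered the group that the selection had not used. The CoMo and LacZ libraries they are set against were held under 1 CPM by the rule, so the control side was fixed by the selection. The demethylase mRNA alone did not bring the members to the level of hRescue. Their median was 0.384 CPM as a mean over hPhf8 replicates 1 and 3, and the median over the controls was 0.363 CPM. In 48 of 55 members both replicates stayed under 1 CPM, in 30 both lay within the range of the 6 controls, and 32 had a mean above the control mean. No gene at all met the rule when hPhf8 replicates 1 and 3 were put in the place of hRescue.

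Against CoMo, edgeR's quasi-likelihood test with Benjamini-Hochberg adjustment over 16843 genes called none of the 44 members that passed the filter on low counts, which requires at least 1 count in 75% of the libraries compared (0% of all genes called). DESeq2 also called none, 3 members had an unadjusted p under 0.05 in edgeR, and the smallest adjusted p of a member was 0.969. Against LacZ edgeR called none of 42 members (0% of 16845 genes), 1 had an unadjusted p under 0.05, and the smallest adjusted p was 0.781. DESeq2 called 53 genes there but gave no member an adjusted p, so it could not have called one. The median log2 fold change over the members that passed was 0.20 against CoMo and 0.17 against LacZ, beside medians of -0.02 and -0.03 over all genes. All genes include those above 1 CPM in the controls, so they are no matched background for members selected as low there. Without the shallow hPhf8 replicate 2, it was 0.02 over 48 members and -0.08 over 50, beside -0.02 and -0.01 over all genes. With all hPhf8 replicates, the median standard error of a member was 0.81 and 0.79 on the log2 scale. A log2 fold change of 1 was thus smaller than 2 standard errors for the median member. A small change in hPhf8 was thus not detectable at this depth.

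Within hPhf8, 7 members reached 1 CPM in replicate 1 or 3. The mean of the replicates was highest for LOC105948284, at 1.38 and 1.15 CPM in replicates 1 and 3 and 5.44 CPM in replicate 2, whereas its controls lay between 0.286 and 0.839 CPM. All 3 hPhf8 libraries were above all 6 controls, and the log2 fold change was 2.00 ± 0.87 (SE) against CoMo and 2.26 ± 0.86 against LacZ, with neither call passing the adjustment. LOC100492139, at 0.967 and 1.06 CPM, and LOC105945624, at 0.690 and 0.576 CPM, were likewise above every control in replicates 1 and 3, and both had no count in replicate 2. Conversely, LOC100486720 and LOC100498329 were below every control in replicates 1 and 3. Both replicates were above the controls in 3 of 55 members, compared with 6.22% of all genes with a count and with 4.54% of the 9099 genes that were under 1 CPM in all controls and had a control count. Both were below in 2 of 55, compared with 1.41% of those genes.

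The shallow hPhf8 replicate 2 gave a coarser picture. It had no count for 40 members, more than 3 counts for 8, and 5.44 CPM for pcdh8, LOC101732670 and LOC105948284. No other hPhf8 value of a member reached 5 CPM. In every member the lowest hRescue library still exceeded the highest hPhf8 library, which held for 19.3% of all genes with a count. The hRescue side of that comparison was set by the selection.

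**Figure D3:**
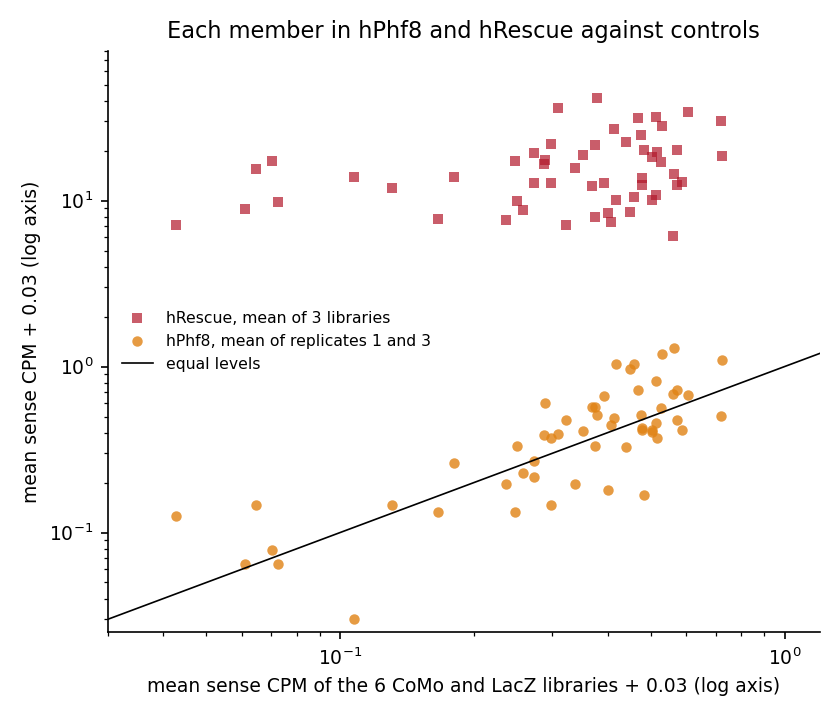
Mean sense CPM plus 0.03 of each of the 55 members in hRescue (squares) and in hPhf8 replicates 1 and 3 (circles) against the mean of the 6 CoMo and LacZ libraries, on log axes with the line of equal levels. hRescue means run from 6.08 to 41.5 CPM, and hPhf8 means from 0 to 1.27 CPM scatter around the line.

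The direct comparison of hRescue with hPhf8 asks what the morpholinos changed on top of the demethylase mRNA. It shares the hRescue libraries with the selection, and the filter on low counts admits a gene through its hRescue libraries. Neither the number of members called nor the adjusted p of a single member is therefore support. Both are given as a description. Of the 55 members, 45 passed that filter. All 45 were called higher in hRescue by edgeR, where 9.16% of 15783 genes were called higher. The log2 fold changes of these members ran from 2.52 to 6.83. It was 6.83 ± 0.74 (SE) for slc46a2 (adjusted p = 0.000805), 5.80 ± 0.56 for mafa (adjusted p = 0.000555), 5.72 ± 0.84 for mixer (adjusted p = 0.00223) and 5.65 ± 0.73 for eomes (adjusted p = 0.0014). The smallest was that of LOC105948284 at 2.52 ± 0.76 (adjusted p = 0.0433), followed by psd at 2.77 ± 0.68 (adjusted p = 0.0203). In 9 members the call was lost under at least 1 alternative, namely pcdh8, psd, dfnb59, hist1h2ah, LOC101732670, LOC100492139, LOC105948284, LOC101730250 and Xetrov90018388m.g. Without hRescue replicate 1 or without hRescue replicate 2, 37 members were called, and without hPhf8 replicate 2 all 54 tested were called. With the replicate number as a block, psd was lost and 44 remained. In hRescue against CoMo, the contrast that the rule itself used, 51 members passed the filter and all were called higher (14.7% of 17099 genes higher), from which nothing can be read.

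The levels of all genes depended on how a library was scaled. The hRescue group also differed from the other groups in the share of its counts on features without a gene ID. That share was 53.9 to 60.9% in hRescue and 16.6 to 31.6% in the other 9 libraries, and these counts were not part of the CPM total. With them in the total, 22 genes met the rule, 15 of which were among the 55, including mafa, apc2, pla2g12b and dysf as the only named ones. On that scale the lowest hRescue library exceeded the highest control for all 55 members, which the limits of the rule and these shares fix in advance. The members' sum with the full total was 506, 389 and 260 CPM in hRescue and at most 17.7 CPM in the controls. With TMM-scaled library sizes 44 genes met the rule, 43 of them members. Features without a gene ID were left out of the fits both with and without TMM. The median log2 fold change of all genes in hRescue against CoMo was -0.02 with TMM and 0.21 without it. The share of called genes that were higher was 43.9% and 58.8%. The part of the scaling in the number of members beyond these values was not tested.

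Counts on the opposite strand, which the rule did not use, were also high in hRescue. Summed over the 55 members, antisense counts, scaled by the same sense total as CPM, were 7.63 to 14.4 in the controls, 11.7, 26.8 and 8.54 in hPhf8 and 260, 260 and 134 in hRescue. Of the 55 members, 53 had any antisense count, and 48 (87.3%) had a higher mean in hRescue than in the controls. Among the 22333 genes with any antisense count, 71.7% had a higher mean in hRescue. Some of the 48 rested on few counts in the shallower hRescue libraries. For example, psd had 1 antisense count over hRescue and 5 over the controls, and mafa had 2 and 2. Whether the antisense values follow the sense counts that the rule selected was not tested. The sense total leaves out features without a gene ID, whose share was higher in hRescue, and antisense values with them included were not computed. In proportion to sense counts, the members had 23.9 antisense counts per 100 sense counts in hRescue (22.5 to 26.1 over the libraries) and 54.3 in the controls (40.8 to 75.6). The control value rested largely on LOC108645812, which had 581 antisense counts over the 6 controls. Without LOC108645812, an alternative chosen after its values had been seen, the ratio was 22.9 in hRescue (21.4 to 25.5) and 30.3 in the controls (23.8 to 44.5), and the ranges overlapped. Over all genes the antisense strand took 2.34 to 2.88% of strand-assigned counts in the 6 controls, whereas the hRescue libraries had 3.84 to 4.15%. The share was 2.58, 23.5 and 3.62% in hPhf8 replicates 1 to 3, so a share above the controls was not particular to hRescue.

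Most of the antisense signal came from provisional models. LOC100486870 had 50.2, 75 and 39.2 antisense CPM in hRescue and 0.557 to 2.24 in the controls, which made 206 antisense counts per 100 sense counts in hRescue. LOC108648873 and LOC101730642 stood near parity, at 108 and 100 antisense per 100 sense counts. The symbol-bearing members had little antisense, at 3.36 per 100 sense counts as a group. The exception was hist1h2ah with 46.4 per 100, and mafa had 0.256 and eomes 0.556 per 100. Whether antisense counts belong to an overlapping transcript on the other strand could not be told from counts per gene.

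**Figure D4:**
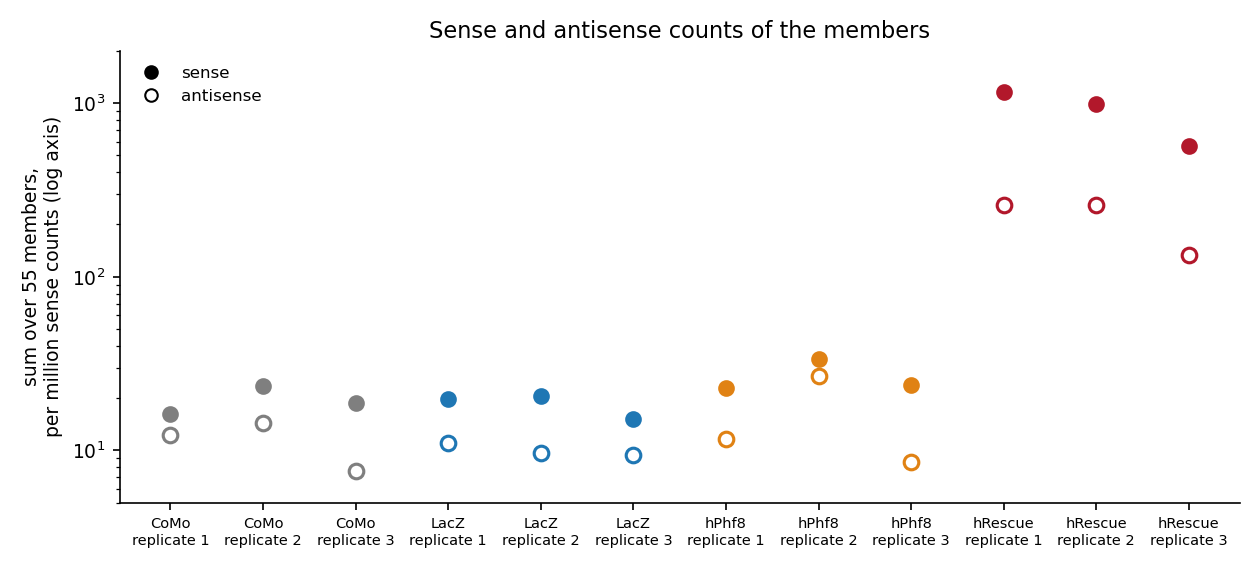
Sum of the sense counts (filled) and antisense counts (open) of the 55 members in CPM of the sense total, on a log axis in each library. Both sums are highest in hRescue (565 to 1157 for sense and 134 to 260 for antisense), and hPhf8 replicate 2 has the highest antisense sum of the other libraries (26.8).

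Many of the provisional members had histone genes as neighbours. In animals, the genes of the core histones lie in arrays of many near-identical copies, and their transcripts from the replication-dependent arrays are made in S phase without a poly(A) tail, so that they are kept in libraries of total RNA. The position of members was read from the RefSeq gene order of the assembly UCB_Xtro_10.0, to which 39 of the 55 members and 5888 of the 6622 annotated IDs could be matched by symbol or entry. This table holds 15 symbols of clustered core histone genes. Of the 39 matched members, 12 (30.8%) lay within 10 genes of such a symbol on the same chromosome, compared with 1.21% of all matched IDs. Among LOC entries alone it was 12 of 26 matched members, compared with 60 of the 896 matched entries (6.70%). The matched IDs come from an annotation that favours changed genes. All 12 were LOC entries, and none is given a name or role here. The windows and the histone symbols were chosen after the values had been seen, so these shares are a description.

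On chromosome 6 these were LOC100497127, next to h2ac7, LOC100497915 at 10 genes from it, and LOC100496181 and LOC100486720 at 2 and 6 genes from h2ac16. On chromosome 9, LOC100498391 and LOC101730642 lay at 1 and 2 genes from h2bc21, and LOC100485239, LOC100488903 and LOC101732904 at 3, 3 and 7 genes from h4c1. The remaining members were LOC108646286 at 4 genes from h2ac12, LOC100495739 at 3 genes from h2bc14 and LOC100497241 at 7 genes from h4c3, all on chromosome 3. Among the members with a symbol, none had another member as its direct neighbour, and the closest matched pair was psd and pla2g12b at 28 genes on chromosome 7. LOC101731931 and LOC101732494 carry the RefSeq symbols ccn1l and ccdc73.

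The 12 members beside histone symbols differed from the 27 other matched members in some values, and none of these differences was tested. Their median level was 22.1, 20.1 and 10.3 CPM in hRescue, and replicate 3 was the lowest library for all 12. It was 0.242 and 0.288 CPM in hPhf8 replicates 1 and 3 and 0.295 to 0.464 CPM in the controls, whereas the other matched members stood at 0.414 and 0.480 CPM in those hPhf8 replicates and at 0.209 to 0.479 CPM in the controls. Replicates 1 and 2 were each the highest hRescue library for 6 of the 12, and for 19 and 8 of the 27. Antisense counts per 100 sense counts were 29.4 in hRescue and 25.2 in the controls for the 12, and 17.9 and 31.5 for the 27. Among the 59 other matched genes in the same windows, 37 (62.7%) had all hRescue libraries above all controls and none had all below. Among all 5849 matched genes that are no members, these 59 included, 29.8% were above.

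Histone genes with a symbol in the study's annotation, chosen after their values had been seen, did not all behave like hist1h2ah. Since near-identical gene copies share reads and STAR counted only read pairs that mapped to 1 place, the counts of named core histone genes, hist1h2ah included, are uncertain. Of 13, 5 had all hRescue libraries above all controls, among them hist1h2ah, for which the selection required it. Another 2 had all below, and 6 overlapped, hist1h2bm and hist2h3c without a count in any of these libraries. All hRescue libraries were above all controls in 19.2% of the 25379 genes with a count in any library. Among the 5849 matched genes that are no members it was 29.8%. The 13 come from the annotation that favours changed genes, so neither share is a matched background for them. The core histone gene hist2h3d was near both selection limits with 13, 9.78 and 5.13 CPM in hRescue against 0.412 to 1.33 CPM in controls, and hist1h2aa was below the hRescue minimum with 2.42, 3.2 and 1.33 CPM against 0.337 to 0.766 CPM. In hist1h2bk the hRescue libraries reached 105, 111 and 52.1 CPM against 1.18 to 6.48 CPM. The linker histone gene h1f0 lay below the controls with 14.6, 21.6 and 18.1 CPM against 55.6 to 92.9 CPM, and so did h2afy, the macroH2A gene, with 3.36, 2.07 and 5.13 CPM against 10.5 to 17.2 CPM.

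To place eomes, mixer and pcdh8 among other genes of their kind, lists of pathway and cell type genes were counted in hRescue against CoMo. The members were left out of the counts. Of 17099 genes, 33.4% were called in either direction. The list genes come from an annotation that favours changed genes, and the lists were chosen with earlier results known. That share is therefore no matched background for them, and the counts are a description. Of the 9 other mesoderm and endoderm markers tested, 7 were higher in hRescue, none lower and 2 not called, with a median log2 fold change of 4.24. The endoderm gene sox17a measured 70.7, 73.9 and 25.7 CPM in hRescue against 0.348 to 4.81 CPM in the 6 controls, a log2 fold change of 4.94 ± 0.49 over CoMo (adjusted p = 0.000159 by edgeR). In CoMo and in LacZ, sox17a was highest in replicate 2, at 2.88 and 4.81 CPM. Its relative sox17b.2 rose by 5.61 ± 0.79, to 7.25, 9.59 and 3.61 CPM in hRescue. It stood at 0, 0.300 and 0.0477 CPM in CoMo, near the floor of detection, so this fold change is uncertain. The Nodal antagonist lefty rose by 4.76 ± 0.65 and the BMP antagonist nog by 4.77 ± 0.68. The genes sox17b.2, lefty and nog also had hRescue replicate 3 as their lowest library. Summed over the 11 markers of the list that are no members, hRescue stood at 151 to 440 CPM and the controls at 7.22 to 62.4 CPM, and no marker was at 0 in all controls.

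The lists of ectoderm and of differentiated epidermis moved in different directions. All 11 multiciliated cell markers were lower in hRescue, among them the ciliary genes tekt2 (fell by 2.84 ± 0.30), tekt1 (fell by 2.81 ± 0.38) and dnai2 (fell by 2.76 ± 0.36). Their summed level was 624 to 819 CPM in hRescue and 1465 to 3160 CPM in the controls. Of 19 markers of epidermis, goblet cells, ionocytes and small secretory cells, 11 were lower, 2 higher and 6 not called. The basal epidermal factor gene tp63, which marks this tissue, measured 931 to 1469 CPM in the controls and 89.2, 60.6 and 141 CPM in hRescue, and the summed epidermal list overlapped between hRescue (12747 to 14481 CPM) and the controls (11500 to 13877 CPM). Of 14 regulators of blastula and gastrula ectoderm, 9 were higher and 2 lower, with ventx1.1, ventx1.2 and pou5f3.2 rising by 2.33 ± 0.19, 2.38 ± 0.22 and 2.32 ± 0.26. Neural and neural crest markers were split, with 3 higher (sox9, zic1 and twist1), 3 lower (snai2 among them) and 3 not called.

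Stress-related lists moved in the same libraries as the members. Of 34 immediate early and stress-induced regulators, 27 were higher and 2 lower, with a median log2 fold change of 2.7 beside -0.02 for all genes. Their summed level was 7282 to 10569 CPM in hRescue and 2441 to 3245 CPM in the controls. The early response genes ier3, fosb and egr1 rose by 5.43 ± 0.31, 5.35 ± 0.34 and 5.27 ± 0.43, and fosb measured 172, 120 and 70.9 CPM in hRescue against 1.04 to 3.12 CPM in the controls. Of 7 heat shock genes 6 were higher and 1 lower, with hspa1b rising by 3.62 ± 0.41 and hsp70 falling by 1.62 ± 0.34. Of 10 genes of the p53 response 6 were higher and 2 lower, mdm2 rising by 2.1 ± 0.22 and tp73 falling. Of 8 blood and immune markers 6 were higher, cebpd, cebpa and irf1 among them, and 1 lower. Their part in the levels of the members was not tested. The stress and the marker genes in these lists come from an annotation that favours changed genes, so their counts are not shares of the whole list. Without hPhf8 replicate 2 and against hPhf8, the mesoderm and endoderm list again had 7 higher and the stress list 28 higher.

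**Figure D5:**
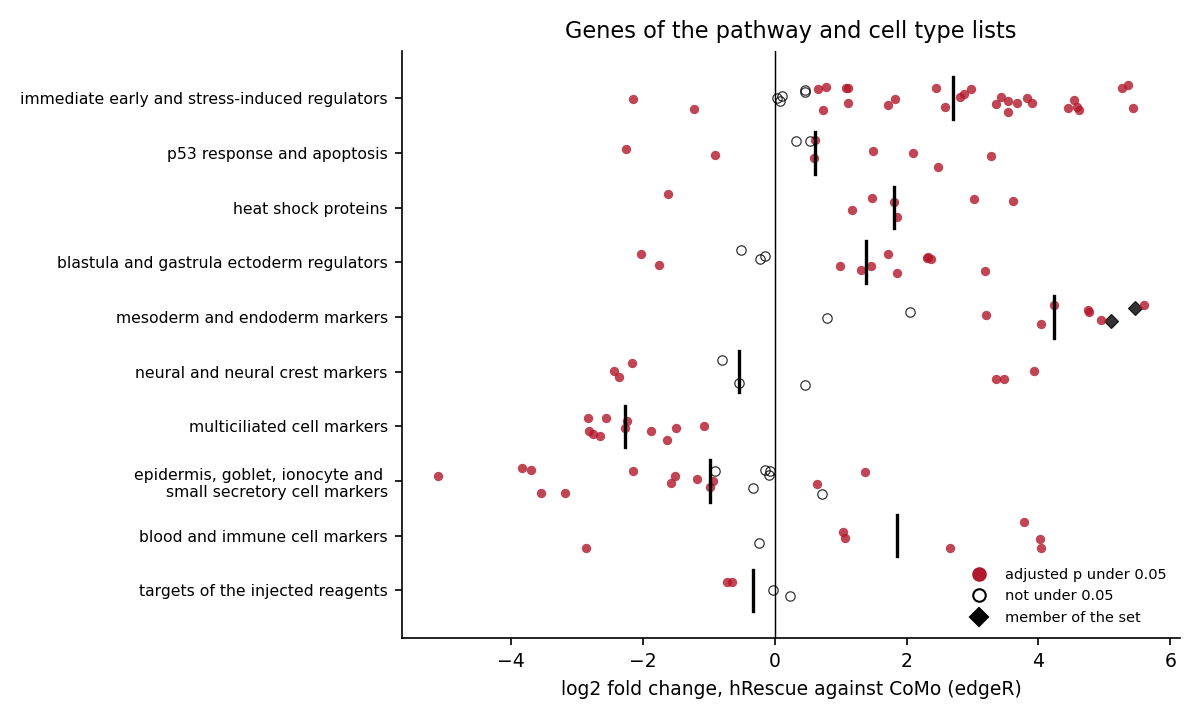
Log2 fold change of hRescue over CoMo (edgeR) for each tested gene of the 10 lists, filled where the adjusted p was under 0.05, with the median of non-members as a bar and the 2 members eomes and mixer as diamonds. The mesoderm and endoderm list has a median of 4.24 and the multiciliated list one of -2.27.

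The frog transcripts of the enzymes targeted were also measured, although translation-blocking morpholinos need not change the RNA and the injected human mRNA is not counted by frog gene models unless its sequence maps there. The Suv4-20H1 gene suv420h1 measured 72.0, 57.7 and 71.5 CPM in hRescue against 72.5 to 118 CPM in the controls, and it stood at 62.0, 56.7 and 75.5 CPM in hPhf8, which had no morpholino. In hRescue against hPhf8 the log2 fold change of suv420h1 was -0.07 ± 0.20 (adjusted p = 0.851 by edgeR), and in hPhf8 against CoMo it was -0.57 ± 0.24 (adjusted p = 0.969). The transcript of kmt5c, the Suv4-20H2 gene, measured 167, 139 and 136 CPM in hRescue, 90.1, 113 and 101 CPM in hPhf8 and 94.9 to 143 CPM in the controls. The frog phf8 gene stood at 148, 127 and 125 CPM in hRescue and at 118, 138 and 157 CPM in hPhf8. In hRescue against CoMo the log2 fold changes were -0.73 ± 0.24 for suv420h1 (adjusted p = 0.0381), -0.64 ± 0.16 for phf8 (adjusted p = 0.0114), -0.03 ± 0.19 for kmt5c (adjusted p = 0.922) and 0.23 ± 0.18 for setd8, the monomethyl transferase gene (adjusted p = 0.37). The first 2 calls were lost under some alternatives, with adjusted p up to 0.162 and 0.0586. None of the 4 is a member, and these levels do not check the labels of the hPhf8 or hRescue libraries.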

How the data were processed

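RNA of animal caps from 12 libraries, 3 each of CoMo, LacZ, hPhf8 and hRescue, had been sequenced as paired-end, directional libraries after removal of ribosomal RNA. The labels state the same removal kit for all 12 libraries, whereas the methods name either of 2 kits without saying which libraries each served. The authors deposited raw counts of read pairs per gene, made with STAR 2.7.1a on the X. tropicalis genome v9.1 from Xenbase with gene models converted by Cufflinks gffread, and did not normalise or pool them. Sense counts are those of the reverse-strand column, antisense counts those of the forward-strand column. The entry for features without a gene ID (16.6 to 60.9% of gene-assigned counts) and STAR's totals were left out of library sizes and tests.

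Members and gene lists were chosen with earlier results of these data known. Genes named were the 15 members with a symbol, the 3 members with the highest minimum, those nearest the limits or most alike, and up to 4 genes of each list. Names came from annotation columns of the study's tables and were matched to RefSeq for gene order only. No sequences were used.

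Tests used edgeR 4.0.16 (R 4.3.3) with TMM on the 6 libraries of a comparison, without covariates, at an adjusted p under 0.05 (two-sided), keeping genes with at least 1 count in 75% of libraries. A script with known changes was tested on simulated data. Standard errors were derived from the fold change and its F statistic. DESeq2 1.42.0, other scalings and filters, unstranded counts, a replicate block and each library left out were the alternatives. Same-numbered hRescue and CoMo libraries deviated together (correlations of 0.21, 0.41 and 0.22), so the numbers were taken to pair them. The values reported for hRescue against CoMo nevertheless come from the fit without this pairing, and the replicate block was an alternative. The labels state biological replicates.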

Additional observations from a re-analysis of the deposited data

Results flagged for a closer look

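Features without a gene ID, which enter none of the comparisons, took 57.0 ± 3.53% (SD, n = 3) of the gene-assigned sense counts in hRescue, more than in any control library (26.0 ± 5.12% in CoMo and 22.5 ± 5.11% in LacZ, n = 3 each), and 22.8 ± 3.01% in hPhf8. The share was highest in hRescue replicate 2 at 60.9%. What these features are was not analysed here.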

How the results depend on the processing

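The number of genes that met the rule moved with its limits. It was 55 as reported, 18 with a control limit of 0.5 CPM, 115 with 2 CPM, 21 with an hRescue minimum of 10 CPM, 116 with 3 CPM, and 22 with features without a gene ID in the total. It was 44 with TMM-scaled library sizes, 51 with DESeq2 size factors and 72 with unstranded counts (45 shared), and 55 to 98 with each library left out, the highest without hRescue replicate 3. For the changed limits the number follows from the limit. For the other settings the cause was not tested. The median in hPhf8 replicates 1 and 3 was 0.356 CPM with DESeq2 size factors, 0.433 CPM with unstranded counts, 0.298 CPM over all 3 hPhf8 replicates, and 0.384 to 0.414 CPM with replicate 1 or 3 left out; the cause was not tested. Members called ranged from 37 to 54 in hRescue against hPhf8, from 51 to 54 in hRescue against CoMo and stayed at 0 in both hPhf8 comparisons when a library was left out. The antisense count ranged from 43 to 48. Windows of 5 and 20 genes, added after the data were seen, held 8 and 15 members.

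The value of a named gene that changed direction was that of kmt5c, log2 fold change, hRescue against CoMo, from -0.030 to 0.034 with DESeq2 and with its size factors in edgeR, 0.22 without TMM, 0.062 with at least 10 counts in 3 libraries and 0.030 in 1 fit over all 12 libraries. With a library left out it ranged from -0.213 to 0.0906, being above 0 without CoMo replicate 1, CoMo replicate 3 or hRescue replicate 2. It passed no test.

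The replicate block left 44 of 45 members called in hRescue against hPhf8 and 51 in hRescue against CoMo, 0 in hPhf8 against CoMo or LacZ, and changed no list count in hRescue against CoMo by more than 1. In hRescue against hPhf8 the correlations of same-numbered libraries were 0.11, 0.11 and -0.01 for replicates 1 to 3. They were 0.31, 0.08 and 0.104 in hPhf8 against CoMo and 0.34, 0.12 and 0.02 in hPhf8 against LacZ. In none of these comparisons were all over 0.1, so no pairing was assumed there. Whether these libraries are paired cannot be told, since hPhf8 replicate 2 is shallow. Depth limits the values of hPhf8 replicate 2, in which 1 count was 0.454 CPM.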
